A study of Drosophila melanogaster with 12 samples.

Results

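The fourth chromosome genes are the 108 genes that the count table places on chromosome 4 of *Drosophila melanogaster*, of 17612 genes in all. The table holds 112 genes for this chromosome, and 4 of them were left out by name. The other genes were taken by their position. They comprise 76 protein-coding genes, 14 long non-coding RNAs, 10 antisense RNAs, 7 pseudogenes and 1 snoRNA. Between 879 and 1271759 on chromosome 4 (release 6 of the fly genome), 55 of them lie on the forward strand and 53 on the reverse strand.

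RNA immunoprecipitation followed by sequencing (RIP-seq) was measured in adult heads, with 3 IPs by an antibody to Caper, 3 IPs by an antibody to the FLAG tag, and the input of each IP. All 12 libraries came from flies of the genotype Hsp70Gal4 x UASCaperFlag, in which a heat shock promoter drives Gal4 and Gal4 drives FLAG-tagged Caper, so expression of the tagged protein is not confined to neurons. All flies, those of the inputs included, were held at 37 °C for 2 h and then kept at 30 °C overnight. No IP with a control antibody or from untagged flies was analysed here, so every value is relative to the input. Titles join each IP to its input (replicates 1 to 3 for Caper, 4 to 6 for FLAG), but they do not state that the replicates were separate pools of flies, so p-values measure the spread between these samples.

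Chromosome 4 is the smallest autosome of the fly and is called the dot chromosome. It is packaged much like heterochromatin along most of its length, with the HP1a protein and H3K9 methylation by the methyltransferase Eggless, and yet it carries many active genes. Its genes are bound by Pof, a chromosome-specific protein with an RNA recognition motif. Caper, the fly counterpart of vertebrate RBM39, is an RNA-binding splicing factor, and RIP-seq measures which RNAs come down with it.

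Between 9615414 and 34264177 read pairs per library were assigned to genes. The assigned share of alignments was 69.3 to 72.4% in the Caper IPs, 53.7 to 60.1% in the FLAG IPs and 22.7 to 26.2% in the inputs. The mitochondrial genome took 0.546 to 2.61% of counts in the IPs and 7.37 to 9.66% in the inputs. Markers of neurons and photoreceptors were present in every library, while the ovary and testis markers summed to at most 2.79 and 12.6 counts per 1000000 (CPM, after TMM scaling). The 3 yolk protein genes were the only listed markers of fat body. They summed to 18859 CPM in Caper IP 1 and 11053 CPM in Caper input 1, against 2831 to 8145 CPM in the other libraries. In RNA from whole heads, fewer cells of a type and less RNA per cell cannot be told apart.

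The fourth chromosome took a smaller share of the counts in every IP than in its own input. The members held 1.15, 0.921 and 0.964% of counts in Caper IPs 1 to 3, against 1.40, 1.22 and 1.10% in Caper inputs 1 to 3. They held 0.957, 0.942 and 0.991% in FLAG IPs 4 to 6, against 1.18, 1.31 and 1.32% in FLAG inputs 4 to 6. The FLAG groups did not overlap, whereas Caper IP 1 lay above Caper input 3. The ratio of the mean shares was 0.818 with the Caper antibody (0.757 to 0.880 over pairs) and 0.759 with the FLAG antibody (0.721 to 0.810). Without counts of the mitochondrial genome and rRNA the ratios were 0.7503 and 0.716. Only 2 members, bt and apolpp, made up 12.1 to 28.3% of the member counts in the IPs and 15.3 to 31.3% in the inputs. Without apolpp, the member with the highest count, the ratios were 0.839 and 0.798.

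With either antibody 90 of the 108 members passed the filter on low counts, and 89 passed with both. The 18 that did not pass had at most 10.5 counts per library on average. They were mainly long non-coding RNAs, pseudogenes and antisense RNAs, and included 1 protein-coding gene, JYalpha. No read pair was assigned to lncRNA:CR45201 or snoRNA:CD-24 in any library, and 5 members had under 10 counts over all libraries together.

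In the Caper IP most RNAs of the fourth chromosome were below their inputs. The median log2 fold change of the members was -0.31, against 0.03 over all 10778 genes tested. Below 0 lay 79 of the 90 members (87.8%), against 46.9% of all genes. By edgeR's quasi-likelihood test, 25 members (27.8%) were called lower, against 7.53% of all genes tested. A single member, dati, was called higher, against 6.33% of all genes. With the replicate number as a block, 40 members were lower (14.8% of all genes) and 2 higher (15.8% of all genes). The count of lower members rested on the libraries. It was 8 without Caper IP 2, 15 without Caper IP 3, 9 without Caper input 1, 0 without Caper input 2 and 11 without Caper input 3. The shares of all genes called lower in these fits were 2.54, 3.32, 1.796, 0.926 and 2.96%. Without Caper input 2 the median of the members was -0.35, and 35 of them had an unadjusted p below 0.05 and a lower value in the IP, as had 10.5% of all genes in that fit. The call for dati was also lost in each of these 5 fits.

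The FLAG IP gave a median of -0.27 for the members, against -0.00 over the 10476 genes tested, with 68 of 90 below 0. Here 39 members (43.3%) were called lower by edgeR, against 20.8% of all genes tested. Only dati and Zyx were called higher, against 19.5% of all genes. Under the replicate block 6 members were higher (29.6% of all genes) and 47 lower (29.5% of all genes). Leaving out 1 library gave 28 to 37 lower members, while 14.1 to 19.0% of all genes were lower in these fits. Of the 39 calls, 27 were kept in all 6 of them. The call for Zyx was lost in all 6, while that for dati was kept in all 6.

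The shift was present in each pair of libraries. The median of the members was -0.26, -0.33 and -0.32 in Caper pairs 1 to 3 and -0.27, -0.29 and -0.30 in FLAG pairs 4 to 6, on the log2 scale. The medians over all genes were 0.00, 0.00 and 0.05 for the Caper pairs and 0.00, -0.00 and 0.01 for the FLAG pairs. Between 60 and 78 of the 90 members were below 0 in each pair, against 44.2 to 50.1% of all genes. All 3 Caper IPs were below all 3 Caper inputs for 46 members (51.1%), against 17.5% of all genes. For the FLAG antibody the same held for 44 members (48.9%), against 27.3% of all genes. The opposite order, with every IP above every input, was found for 2 members with the Caper antibody (19.1% of all genes) and 9 with the FLAG antibody (26% of all genes).

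**Figure D1:**
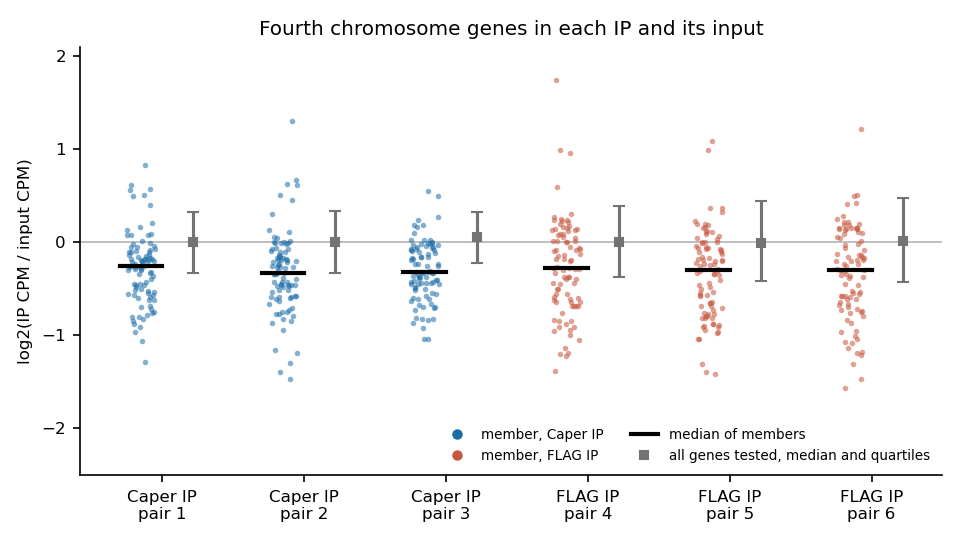
log2 ratio of CPM in each IP to CPM in its own input for the 90 members tested with each antibody (points), with the median of the members (black line) and the median and quartiles of all genes tested (grey square and bars). In all 6 pairs the median of the members lies between -0.33 and -0.26, below the median of all genes.

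The other chromosome arms had medians near 0. The arms X, 2L, 2R, 3L and 3R had medians of 0.10, -0.03, 0.03, 0.03 and 0.04 in the Caper IP, and between 6.11 and 7.74% of their genes were called lower. In the FLAG IP their medians were 0.06, -0.05, -0.02, 0.01 and 0.00, and 18.2 to 23.5% of their genes were lower. Genes called higher made up 4.95 to 8.65% of an arm with Caper and 16 to 23.2% with FLAG, against 1.11 and 2.22% of the members. No Y-linked gene passed the filter. The difference between chromosomes was not tested.

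**Figure D2:**
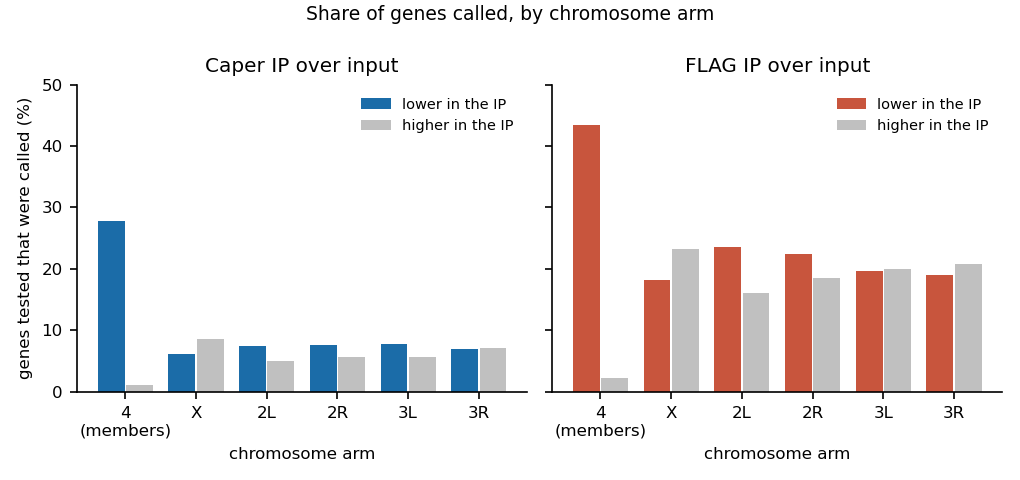
Percent of the genes tested that were called lower (coloured bars) or higher (grey bars) in the Caper IP (left panel) and in the FLAG IP (right panel), for the members on chromosome 4 and the genes of 5 other chromosome arms. Lower calls reach 27.8 and 43.3% of the members, and higher calls 1.11 and 2.22%.

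Members were then set beside genes of the other chromosomes with similar exon length (within 0.25 on the log2 scale) and similar input CPM (within 0.5 on the log2 scale). At least 10 such genes were found for 86 members with each antibody, with a median of 151.5 genes per member for Caper and 156 for FLAG. In the Caper IP 75 of the 86 members were below the median of their matched genes, and the median difference was -0.32 on the log2 scale. With the FLAG antibody 68 of 86 were below, with a median difference of -0.29. Lower calls covered 27.9% of these members in the Caper IP, against a mean of 9.24% of their matched genes. In the FLAG IP the shares were 43.0% of the members and 18.7% of the matched genes. For higher calls they were 1.16% against 7.20% with Caper and 2.33% against 25.4% with FLAG. The difference kept its sign under every other matching tried.

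The members are long genes with many exons. Those tested with the Caper antibody had a median of 3696 exon bases, against 2026 on the other chromosomes, and a median gene span of 8406 bases against 2668. Their median number of separate exon blocks was 7 against 4. Requiring the same number of exon blocks left matched genes for 44 members with Caper and 43 with FLAG, with median differences of -0.25 and -0.14. The same 44 and 43 members differed by -0.23 and -0.15 from genes matched on length and input alone. Across the 90 members, log2 fold change was weakly related to exon length (Spearman correlation -0.12 for Caper and 0.06 for FLAG), to exon blocks (-0.16 and -0.02) and to input CPM (-0.25 and -0.09). These correlations are across genes, which are not independent replicates.

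Lower calls were spread along the chromosome. Divided into 3 stretches of 30 members by their order, the chromosome had 7, 8 and 10 lower calls in the Caper IP, with medians of -0.27, -0.30 and -0.39. In the FLAG IP the stretches had 14, 12 and 13 lower calls, with medians of -0.30, -0.20 and -0.34. The Spearman correlation between start position and log2 fold change was -0.06 for Caper and -0.03 for FLAG (90 members each).

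**Figure D3:**
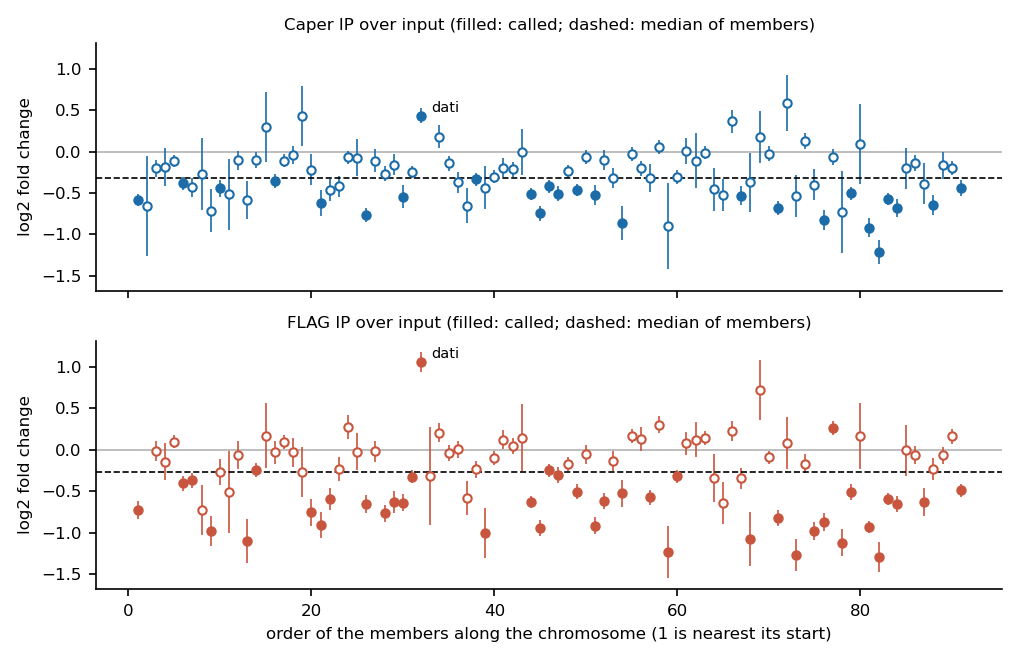
log2 fold change of each member over input with its standard error, in the order of the genes along chromosome 4, for the Caper IP (top) and the FLAG IP (bottom). Filled points were called, the dashed line is the median of the members (-0.31 and -0.27), and lower calls are found in every stretch of the chromosome.

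The 2 antibodies gave similar values for the same genes. The Caper and FLAG comparisons share no library. Across the 89 members tested with both, log2 fold changes had a Pearson r of 0.78 and a Spearman correlation of 0.81, next to 0.81 and 0.76 over all 10354 genes tested with both. Below 0 with both antibodies were 65 of the 89 members (73.0%), against 36.9% of all genes. Lower in both IPs were 20 members (22.5%), against 6.52% of all genes, and 1 member, dati, was higher in both (1.12%, against 5.28% of all genes). Under the replicate block 36 members (40.4%) were lower in both, against 13.2% of all genes, and dati remained the only one higher in both (1.12%, against 13.2% of all genes). Without the block, a further 19 were lower in the FLAG IP only and 5 in the Caper IP only. No member was called in opposite directions. The shares of all genes called with a single antibody, or in opposite directions, were not counted, so these counts lack a background. Of all genes tested, 20.8% were lower with FLAG and 7.53% with Caper, whatever the call with the other antibody.

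**Figure D4:**
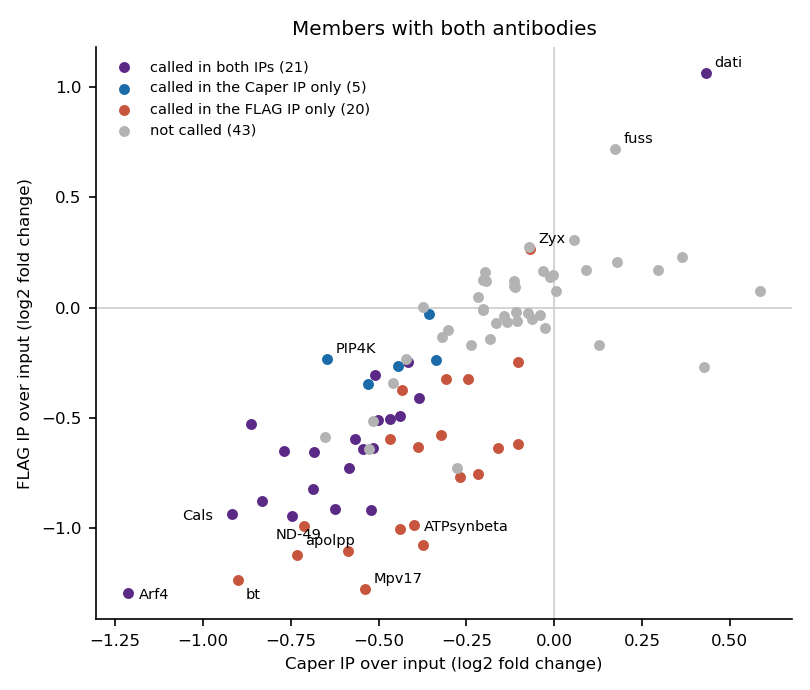
log2 fold change over input in the Caper IP (x axis) against that in the FLAG IP (y axis) for the 89 members tested with both antibodies, coloured by call. The cloud lies mostly below 0 on both axes, with 65 members in the lower left quadrant, and dati is at the upper right.

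Among 17 listed transcription and chromatin regulators of the chromosome, dati rose in both IPs. It encodes a zinc finger transcription factor and lies at 375640 to 395605 on chromosome 4. Its CPM was 179, 157 and 152 in the Caper IPs, against 121, 114 and 126 in the Caper inputs. In the FLAG IPs it was 219, 260 and 239 CPM, against 110, 131 and 103 CPM in the FLAG inputs. Every IP was above every input with both antibodies. The log2 fold change was 0.43 ± 0.09 (SE) with Caper (edgeR adjusted p = 0.0298) and 1.06 ± 0.12 with FLAG (adjusted p = 0.000672). With 1 library left out in turn the Caper call was kept in 1 of 6 fits, that without Caper IP 1, and the FLAG call in 6 of 6. Set beside genes of similar length and input, dati was 0.43 above their median in the Caper IP and 0.87 above it in the FLAG IP.

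Most of the other listed regulators were not called. Of the 17, 2 were lower in the Caper IP (Pur-alpha and Taf3) and 3 in the FLAG IP (Pur-alpha, Hcf and MED26), against 7.53 and 20.8% of all genes tested, and the medians of the list were -0.14 and -0.04. Under the block 5 were lower with each antibody, against 14.8 and 29.5% of all genes. NfI and fuss, regulators of transcription that the list does not hold, were called with neither antibody, but both were higher in the FLAG IP under the block (adjusted p = 0.0214 and 0.0251). Pur-alpha, a single-stranded nucleic acid binding protein, had 103, 95.8 and 102 CPM in the Caper IPs, against 141, 143 and 147 CPM in the Caper inputs. It had 90.4, 85.9 and 92.2 CPM in the FLAG IPs, against 138, 142 and 138 CPM in the FLAG inputs. Neither pair of groups overlapped, and its log2 fold changes were -0.51 ± 0.07 (edgeR adjusted p = 0.00981) and -0.63 ± 0.07 (adjusted p = 0.00085).

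The 3 regulators with the highest input counts were pan, zfh2 and onecut, and none was called with either antibody. pan, the TCF factor at the end of the Wingless pathway, had log2 fold changes of -0.12 ± 0.08 with Caper and 0.10 ± 0.08 with FLAG. The zinc finger homeodomain factor zfh2 had -0.19 ± 0.12 and 0.12 ± 0.12, and the neuronal homeodomain factor onecut -0.24 ± 0.08 and -0.17 ± 0.08. With the replicate block onecut was lower in both IPs (adjusted p = 0.0421 and 0.0463). The Pax6 genes ey and toy were not called either, although ey stood just outside the threshold in the FLAG IP at 0.30 ± 0.10 (adjusted p = 0.0501, and 0.00391 under the block). ci and lgs, of the Hedgehog and Wingless pathways, lay between -0.20 and -0.01.

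Among the role lists, that of synapses and axon guidance had the most lower calls. Of its 14 members, 10 were lower in the Caper IP (list median -0.47) and 11 in the FLAG IP (list median -0.55), against 7.53 and 20.8% of all genes tested. None was higher, against 6.33 and 19.5% of all genes. Their summed level was 1562 to 1702 CPM in the Caper IPs, against 2269 to 2387 CPM in the Caper inputs. It was 1541 to 1624 CPM in the FLAG IPs, against 2183 to 2306 CPM in the FLAG inputs. The 4 neuronal markers, elav, nSyb, Syt1 and brp, all on other chromosomes, summed to 4384 to 4534 CPM in the Caper IPs, against 4048 to 4348 CPM in the inputs, and to 5335 to 5499 CPM in the FLAG IPs, against 3965 to 4287 CPM in the inputs. In the Caper IP elav and Syt1 lay below 0 (-0.24 and -0.28) and nSyb and brp above it (0.30 and 0.14), and none was called by edgeR, while under the block Syt1 was lower and nSyb higher (adjusted p = 0.0426 and 0.0381). In the FLAG IP brp was higher, and under the block nSyb was too (adjusted p = 0.0335). The photoreceptor markers, by contrast, summed to 19403 to 23987 CPM in the FLAG IPs, against 31861 to 32967 CPM in the inputs, and 3 of the 4 were lower there (4 under the block). They summed to 29857 to 41430 CPM in the Caper IPs, against 32057 to 37087 CPM in the inputs, and 1 of the 4, norpA, was lower. Under the block ninaC and trpl were lower as well, while ninaE had 0.20 in the Caper IP on the log2 scale and was not called. The part of photoreceptor RNA in the values of this list was not tested.

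The list includes both Plexins, the receptors of Semaphorins in axon guidance. PlexA had 219, 204 and 226 CPM in the Caper IPs, against 369, 332 and 343 CPM in the Caper inputs. The FLAG libraries gave 207, 176 and 210 CPM in the FLAG IPs, against 332, 361 and 355 CPM in the FLAG inputs. The groups did not overlap with either antibody, and the log2 fold changes were -0.69 ± 0.08 (edgeR adjusted p = 0.00768) and -0.82 ± 0.10 (adjusted p = 0.00098). PlexB fell by 0.58 in the Caper IP and by 0.73 in the FLAG IP on the log2 scale. The receptor Eph and its ligand Ephrin also fell in both, Eph by 0.47 and 0.51 and Ephrin by 0.42 and 0.25 on the log2 scale. The FLAG call for Ephrin was lost whenever any library was left out.

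Syt7, Cadps and PMCA act in vesicle release and calcium handling. Syt7, a calcium sensor of vesicle fusion, had 62.3, 61.3 and 70.5 CPM in the Caper IPs, against 107, 112 and 111 CPM in the Caper inputs. In the FLAG IPs it had 69.2, 59.9 and 62.2 CPM, against 108, 87.5 and 105 CPM in the FLAG inputs. No IP reached an input, and the log2 fold changes were -0.77 ± 0.08 (edgeR adjusted p = 0.00548) and -0.65 ± 0.11 (adjusted p = 0.00332). Cadps, which primes dense-core vesicles, fell by 0.44 and 0.49 on the log2 scale, and PMCA, the calcium pump of the plasma membrane, by 0.55 and 0.64. Leaving out 1 library at a time kept the Caper call of Syt7 in 5 of 6 fits, that of Cadps in 2 and those of PMCA, Gat, mGluR, Ank and Ephrin in 1.

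Gat, mGluR and Ekar handle neurotransmitters. Gat, the transporter that clears GABA, had 36.4, 33.9 and 30.6 CPM in the Caper IPs, against 54.8, 47.3 and 42.9 CPM in the Caper inputs. It had 25.8, 27.7 and 23.8 CPM in the FLAG IPs, against 45.9, 51.9 and 47.9 CPM in the FLAG inputs. The groups did not overlap, and the log2 fold changes were -0.52 ± 0.12 (edgeR adjusted p = 0.0389) and -0.92 ± 0.10 (adjusted p = 0.000644). The other two encode glutamate receptors. mGluR was lower in the Caper IP (-0.53 ± 0.12) and not called in the FLAG IP (-0.35 ± 0.13, but adjusted p = 0.00349 with the replicate block). Ekar was -0.10 ± 0.12 with Caper and lower with FLAG (-0.62 ± 0.10). Of the synaptic list only CaMKI and the adaptor Crk were called in neither, with CaMKI at -0.37 ± 0.13 (adjusted p = 0.0121 with the replicate block) and 0.00 ± 0.10 and Crk at -0.11 ± 0.08 and 0.09 ± 0.08.

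Outside the role lists, 24 of 25 protein-coding members were tested, with medians of -0.44 with Caper and -0.61 with FLAG. The list of synapses and axon guidance had -0.47 and -0.55. Of the 24, 11 were lower with the Caper antibody and 16 with FLAG, against 7.53 and 20.8% of all genes tested. They held the member with the lowest ratio to input with both antibodies, Arf4, a small GTPase of membrane traffic. It lies at 1124167 to 1125325 on chromosome 4. Its CPM was 8.60, 10.6 and 11.1 in the Caper IPs, against 21.1, 26.3 and 22.8 in the Caper inputs. With the tag antibody it was 10.5, 8.36 and 9.01 CPM in the FLAG IPs, against 24.3, 17.3 and 26.9 CPM in the FLAG inputs. Every IP was below every input, with log2 fold changes of -1.21 ± 0.14 (edgeR adjusted p = 0.00719) and -1.29 ± 0.18 (adjusted p = 0.00175).

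Its neighbour Cals (1112874 to 1123357), a calsyntenin of postsynaptic membranes, had 110, 85.2 and 101 CPM in the Caper IPs, against 186, 195 and 178 CPM in the Caper inputs. In the FLAG IPs it had 98.4, 93.3 and 95.8 CPM, against 185, 179 and 185 CPM in the FLAG inputs. The 6 IPs lay between 85.2 and 110 CPM, below all inputs, and the log2 fold changes were -0.92 ± 0.11 (edgeR adjusted p = 0.00735) and -0.93 ± 0.07 (adjusted p = 0.000218). Genes matched to Cals on length and input had a median of 0.22 in the FLAG IP, which put Cals 1.15 below them.

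CaMKII, the calcium-dependent kinase of synaptic plasticity, lies at 1035288 to 1053703. It had 108, 114 and 137 CPM in the Caper IPs, against 192, 219 and 228 CPM in the Caper inputs. It had 111, 93.3 and 108 CPM in the FLAG IPs, against 204.99, 171.88 and 196.27 CPM in the FLAG inputs. The groups did not overlap, and the log2 fold changes were -0.83 ± 0.12 (edgeR adjusted p = 0.011) and -0.88 ± 0.11 (adjusted p = 0.000984). CG1674, CG32017 and CG46466 were also lower with both antibodies. They fell by 0.62, 0.69 and 0.86 in the Caper IP and by 0.91, 0.65 and 0.53 in the FLAG IP on the log2 scale. CG33941, with the fewest counts of the named members, had 2.90, 2.03 and 3.23 CPM in the FLAG IPs, against 6.49, 3.54 and 6.41 CPM in the FLAG inputs. It was lower in the FLAG IP only (-1.002 ± 0.299, edgeR adjusted p = 0.032). When libraries were left out in turn, that call was kept in 1 of 6 fits, the FLAG call of CG46466 in 2 and the Caper calls of CG46466 and CG1674 in 1.

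**Figure D5:**
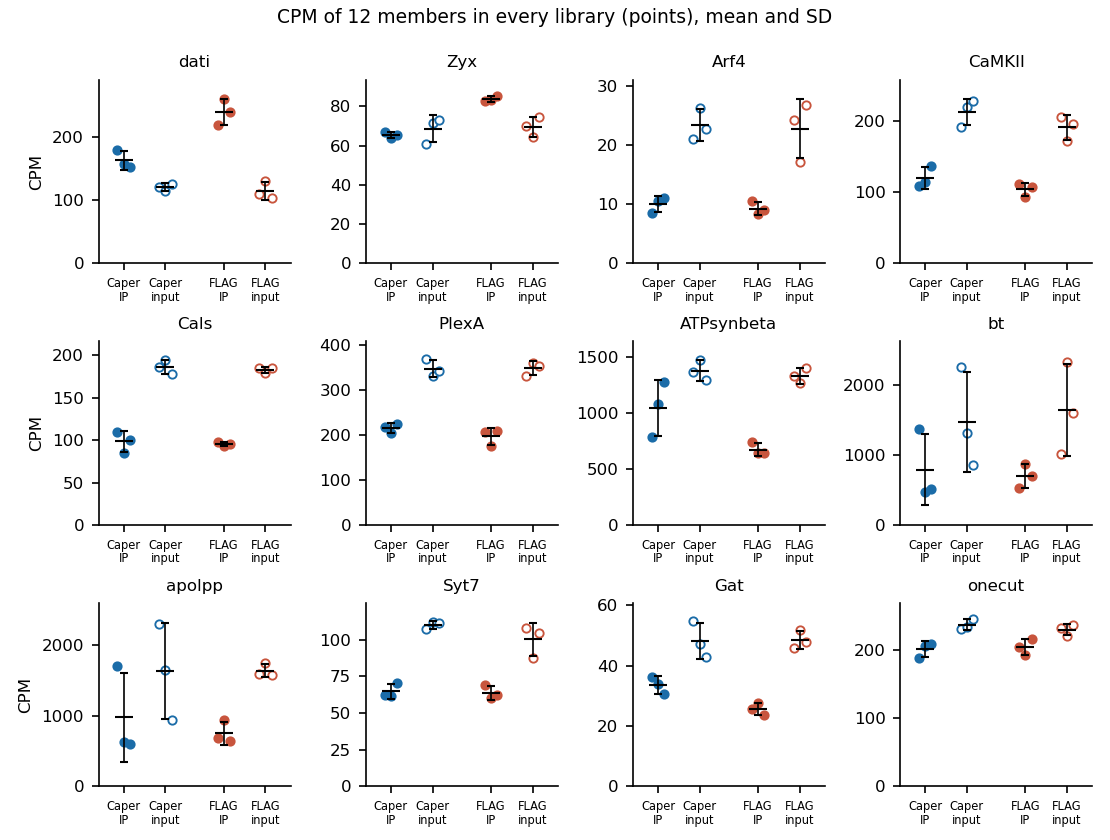
CPM of 12 members in each of the 12 libraries, with Caper IPs (blue, filled), Caper inputs (blue, open), FLAG IPs (red, filled) and FLAG inputs (red, open), and the mean and SD of each group of 3. For dati every IP lies above every input. For Arf4, CaMKII, Cals, PlexA, ATPsynbeta, Syt7, Gat and onecut every IP lies below every input of the same antibody. For bt and apolpp the Caper groups overlap.

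ND-49, ATPsynbeta and Mpv17 encode mitochondrial proteins. ND-49, a subunit of complex I of the respiratory chain, had 71.3, 72.0 and 79.6 CPM in the Caper IPs, against 131, 130 and 113 CPM in the Caper inputs. The FLAG libraries gave 63.9, 66.7 and 67.8 CPM in the FLAG IPs, against 120, 118 and 144 CPM in the FLAG inputs. It was lower with both, at -0.75 ± 0.09 (edgeR adjusted p = 0.00813) and -0.94 ± 0.10 (adjusted p = 0.000568).

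ATPsynbeta, the catalytic subunit of ATP synthase, had 786, 1079 and 1277 CPM in the Caper IPs, against 1372, 1478 and 1295 CPM in the Caper inputs. In the FLAG IPs it had 740, 645 and 640 CPM, against 1330, 1268 and 1405 CPM in the FLAG inputs. ATPsynbeta was not called in the Caper IP (-0.40 ± 0.18, edgeR adjusted p = 0.201, and 0.0732 under the block). The 3 Caper IPs were widely spread, though each lay below every Caper input. In the FLAG IP ATPsynbeta was lower (-0.98 ± 0.11, adjusted p = 0.000644). Mpv17, of the inner mitochondrial membrane, had -0.54 ± 0.25 with Caper and -1.28 ± 0.19 with FLAG (adjusted p = 0.212 and 0.00227). The Caper value of Mpv17 passed with the replicate block (adjusted p = 0.0177).

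The list of metabolism, transport and turnover, which holds ATPsynbeta, had 11 members, all tested. Of these 1 was lower in the Caper IP (PIP4K, a lipid kinase) and 4 in the FLAG IP (ATPsynbeta, apolpp, yellow-h and the zinc transporter Zip102B), against 7.53 and 20.8% of all genes tested, with list medians of -0.22 and -0.10. With the replicate block 4 were lower with Caper and 5 with FLAG, against 14.8 and 29.5% of all genes. PIP4K was the one added with FLAG (edgeR adjusted p = 0.0233, against 0.199 without the block). apolpp is the apolipoprotein of the haemolymph, made in fat body. It had 1701, 624 and 605 CPM in the Caper IPs, against 2291, 1642 and 939 CPM in the Caper inputs. It had 678, 938 and 638 CPM in the FLAG IPs, against 1586, 1741 and 1578 CPM in the FLAG inputs. The Caper groups overlapped because IP 1 exceeded inputs 2 and 3, and each IP was nonetheless below its own input. The log2 fold change was -0.73 ± 0.50 in the Caper IP (edgeR adjusted p = 0.384, and 0.0182 under the block) and -1.12 ± 0.16 in the FLAG IP (adjusted p = 0.0019). The yolk protein genes, the only listed fat body markers, were highest in the same pair, Caper 1. Their part in the values of apolpp was not tested. Tdg, a DNA glycosylase, had -0.22 ± 0.09 and 0.05 ± 0.09 and was not called, and it shares exon bases on its strand with lncRNA:CR43958, so the split of reads between them is uncertain.

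bt, which encodes the giant muscle protein projectin, is the most counted of the 4 genes of muscle and cytoskeleton. With Caper 0 of the 4 were called by edgeR, and with FLAG bt was lower and Zyx higher. Of all genes tested, 7.53% were lower and 6.33% higher with Caper, and 20.8% lower and 19.5% higher with FLAG. Under the block 2 of the 4 were lower with each antibody, against 14.8% of all genes with Caper and 29.5% with FLAG. bt had 1369, 477 and 520 CPM in the Caper IPs, against 2252, 1316 and 850 CPM in the Caper inputs. The FLAG libraries gave 524, 871 and 699 CPM in the FLAG IPs, against 1013, 2322 and 1592 CPM in the FLAG inputs. Pairs 1 and 5 were the high ones in both IP and input, and the Caper groups overlapped. Its log2 fold change was -0.90 ± 0.52 in the Caper IP (edgeR adjusted p = 0.299, and 0.00716 under the block) and -1.23 ± 0.31 in the FLAG IP (adjusted p = 0.0172). The FLAG call of bt was kept in 4 of the 6 fits that left out a library. The muscle markers Mhc, Mlc2 and up summed to 9152 to 10096 CPM in the Caper IPs, against 8430 to 9883 CPM in the inputs, and to 7265 to 7418 CPM in the FLAG IPs, against 8746 to 10639 CPM in the inputs. Of these 3, up was higher in the Caper IP, and Mhc and Mlc2 were lower in the FLAG IP. The part of the muscle markers in the values of bt was not tested.

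Zyx, the focal adhesion protein zyxin, was higher in the FLAG IP. It had 66.7, 63.7 and 65.5 CPM in the Caper IPs, against 60.8, 71.7 and 73.2 CPM in the Caper inputs. In the FLAG IPs it had 82.9, 83.1 and 85.2 CPM, against 69.9, 64.5 and 74.7 CPM in the FLAG inputs. Only the FLAG groups were apart, and the log2 fold changes were -0.07 ± 0.09 (edgeR adjusted p = 0.681) and 0.27 ± 0.08 (adjusted p = 0.0386).

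The 3 TGF-beta ligands of the chromosome differed. Actbeta, an Activin, had 57.5, 59.3 and 63.6 CPM in the Caper IPs, against 85.2, 88.5 and 82.0 CPM in the Caper inputs. It had 62.4, 52.5 and 57.8 CPM in the FLAG IPs, against 80.6, 78.1 and 86.7 CPM in the FLAG inputs. It was lower with both antibodies, by 0.50 ± 0.08 and 0.51 ± 0.09 on the log2 scale. Myoglianin (myo) was lower in the FLAG IP only (-0.32 ± 0.17 with Caper and -0.58 ± 0.09 with FLAG), and maverick (mav) in neither (-0.06 ± 0.09 and -0.05 ± 0.12). Of the 2 regulators of mRNA, gw, the GW182 protein of microRNA silencing, had -0.32 ± 0.12 and -0.13 ± 0.12 and Gyf, a GYF domain protein, -0.01 ± 0.08 and 0.14 ± 0.08. Neither was called, although gw was lower in the Caper IP under the block (adjusted p = 0.0231).

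Non-coding members gave few calls. Of 32, only 15 were tested with each antibody, and their median input was 2.78 CPM for Caper and 2.59 CPM for FLAG. In the Caper IP 0 were called by edgeR, with a median of -0.18. Under the block 1 was lower and 1 higher there, against 14.8 and 15.8% of all genes. With FLAG lncRNA:CR46488 and asRNA:CR44030 were lower, and the median was -0.27. The block gave 4 lower and 1 higher with FLAG, against 29.5 and 29.6% of all genes. Non-coding genes of other chromosomes had medians of 0.10 and 0.17. Of these, 118 of 711 were lower and 30 higher in the Caper IP, and 138 of 683 lower and 101 higher in the FLAG IP. Among protein-coding genes the medians were -0.32 and -0.26 for the 75 members tested, against 0.03 (9973 tested) and -0.00 (9699 tested) elsewhere.

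The difference between the antibodies was tested over all 12 libraries. By edgeR 0 of 92 members differed between the FLAG and the Caper enrichment, next to 0.817% of all genes higher and 0.145% lower with FLAG, while 12 members had an unadjusted p below 0.05, as had 1770 of all 11012 genes. DESeq2 called 3 of 106 members higher and 2 lower, next to 2.73 and 1.14% of all genes. With the replicate block 3 were higher with FLAG (dati, PIP4K and CG11360) and 5 lower (Mpv17, Ekar, Zip102B, Rnf11 and Gat), next to 6.62 and 5.44% of all genes. For dati the FLAG enrichment exceeded the Caper enrichment by 0.63 ± 0.16 on the log2 scale (adjusted p = 0.0836, and 0.00829 with the block). Ekar had -0.51 ± 0.15 (adjusted p = 0.131, and 0.00939 with the block). Between the FLAG inputs and the Caper inputs, 0 of 89 members and 0% of 9944 genes were called in either direction by edgeR, and 0 members by DESeq2. Only 1 member had an unadjusted p below 0.05 there.

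RNAs of proteins listed as regulators of the chromosome were measured alongside, all of them from other chromosomes. Whether each of these proteins acts on chromosome 4 in heads was not tested. Of the 11 listed, 0 were called in the Caper IP by edgeR (2 higher and 1 lower with the replicate block) and 5 were higher and 1 lower in the FLAG IP (6 and 2 with the block), with list medians of 0.00 and 0.50. The 5 higher ones were Pof, wde, Su(var)3-7, Su(var)3-9 and Su(var)2-HP2, and the lower one was HP4. Over all genes tested 19.5% were higher and 20.8% lower in the FLAG IP. With the block these shares were 29.6 and 29.5% in the FLAG IP and 15.8 and 14.8% in the Caper IP. Pof had 19.0, 9.78 and 9.54 CPM in the Caper IPs, against 11.7, 9.01 and 5.32 CPM in the Caper inputs. The FLAG libraries gave 12.1, 15.3 and 13.5 CPM in the FLAG IPs, against 10.02, 7.15 and 7.88 CPM in the FLAG inputs. Each IP was above its own input, and the log2 fold changes were 0.56 ± 0.38 (edgeR adjusted p = 0.378, and 0.0436 under the block) and 0.71 ± 0.16 (adjusted p = 0.0124). egg, which encodes Eggless, was not called, at -0.20 ± 0.08 and -0.10 ± 0.11.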

How the data were processed

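RIP-seq was measured in 12 libraries of adult heads. The authors trimmed reads with fastp (0.20.1), mapped them with STAR (2.7.6a) to FlyBase release 6.36 and deposited raw counts of read pairs per gene from featureCounts (2.0.1, stranded, minimum mapping quality 20), without normalization. The deposited table also holds the exon length and coordinates of each gene, and a deposited summary holds alignment counts. All 108 members matched a RefSeq gene (Release 6 plus ISO1 MT) at the same start and end, which gave the symbols (17183 of 17612 genes in all).

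Each antibody's 3 IPs were compared with its 3 inputs by edgeR (4.0.16, R 4.3.3) on the whole table, with TMM normalization, the default filter (minimum count 10, minimum total 15), glmQLFTest and Benjamini-Hochberg adjustment over all genes tested, and a threshold of 0.05. The standard error is the log2 fold change divided by the square root of F, and CPM uses TMM library sizes. The numbers in the titles pair each IP with its input. After group means were removed, the paired libraries correlated at 0.770, 0.152, 0.641, 0.605, 0.649 and 0.524 (replicates 1 to 6, 11012 genes). Caper IP 2 correlated more with Caper input 3 (0.565) than with its own input. For that pair the block in the Caper fits rests on the titles alone. The methods name no replicate term, so the block was an alternative, beside DESeq2 (1.42.0), RLE factors, library size only, other filters and leaving out libraries.

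On simulated counts edgeR recovered 70.5% of 200 changed genes for the Caper comparison (10778 genes) and 80.5% for the FLAG comparison (10476 genes). These genes were changed 2-fold or 3-fold, and 65 and 72% of the 2-fold changes were recovered for Caper and FLAG. Smaller changes, such as the medians of the members, were not simulated. Depth limits the precision of members with few counts. Members were matched to all genes of other chromosomes within the stated windows, at least 10, and none was drawn at random. Members, role lists and tests were chosen with earlier results of these data known. Named are the 3 members with the highest input counts in each list, up to 12 called in both IPs, and the 5 with the largest change in each IP and direction among members averaging 50 counts or more whose pairs all moved one way. One listed gene, Stlk, lies on another chromosome and was left out of its list. Other named members were chosen after their values were seen. No sequence was used.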

Additional observations from a re-analysis of the deposited data

Results flagged for a closer look

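For 5 members all 3 pairs moved one way with the Caper antibody and all 3 the other way with the FLAG antibody. They were picked for this pattern. The share of all genes with it was not counted, so the count of 5 lacks a background. The FLAG enrichment minus the Caper enrichment was 0.22 for pan, 0.20 for Slip1, 0.33 for CG11360, 0.36 for Dyrk3 and -0.70 for CR46405, on the log2 scale. By edgeR over all 12 libraries none of these differences passed, with adjusted p = 0.289 for pan, 0.433 for Slip1, 0.378 for CG11360, 0.152 for Dyrk3 and 0.497 for CR46405. With the replicate block only CG11360 passed (adjusted p = 0.0472). Groups of 3 were too small for a test of outlying samples.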

How the results depend on the processing

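Lower members in the Caper IP numbered 25, but 15 with library size as the only scaling and 40 with the replicate block. They numbered 0 to 37 when 1 library was left out, and 22 to 46 when a pair was left out of the blocked fit. In the same order, the shares of all genes were 7.53, 4.95, 14.8, 0.926 to 11.1 and 6.32 to 15.5%. Higher members in the Caper IP numbered 1, but 2 with library size only, 2 with the block and 0 to 1 without 1 library. In the FLAG IP 2 members were higher, but 1 without a filter and 6 with the block (3 to 4 without a pair). The shares of all genes called higher in the FLAG IP were 19.5, 12.1 and 29.6% (24.5 to 26.2% without a pair). There the fits without 1 library gave 1 to 2 higher members (12.5 to 18.1% of all genes higher). They gave 28 to 37 lower members (14.1 to 19.0% of all genes lower). For the difference between antibodies, 0 members became 3 higher and 2 lower with DESeq2 and 3 higher and 5 lower with the block (0 to 8 higher and 0 to 6 lower without a pair), and 0 to 1 higher and 0 to 2 lower without 1 library. The cause of these changes was not tested. Library size only moved the median of all genes to 0.18 for Caper and 0.09 for FLAG, and gave 1622 higher and 533 lower genes for Caper (682 and 812 with TMM) and 2522 and 1685 for FLAG (2045 and 2184 with TMM). The members then had medians of -0.16 and -0.17, which is -0.34 and -0.27 relative to all genes.

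The Caper median was -0.35 to -0.24 without 1 library. The FLAG median was -0.24 with DESeq2, -0.25 without a filter, -0.24 with at least 10 counts in every library, -0.28 with the block and -0.33 to -0.22 without 1 library. Against matched genes the Caper difference was -0.25 with exon blocks matched and -0.32 to -0.23 without 1 library. The FLAG difference was -0.33 with windows of double width, -0.37 on length only, -0.14 with exon blocks, -0.34 with protein-coding genes only (an alternative chosen after seeing the data) and -0.35 to -0.28 without 1 library. Without mitochondrial and rRNA counts the Caper share ratio was 0.7503. Values near 0 changed sign, none of them called. For Gyf in the Caper IP this gave 0.14 with library size only, 0.024 without a filter and -0.075 to 0.021 without 1 library (0.0049 without Caper IP 2, 0.0028 without Caper input 2 and 0.021 without Caper input 3). With library size only, Zyx, mav and pan in the Caper IP were at 0.082, 0.087 and 0.036. In the FLAG IP mav was at 0.040 with library size only and 0.013 without FLAG input 4. Depth limits the precision of members with few counts, most non-coding members among them.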
